A study of Arabidopsis thaliana with 8 samples.

Results

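Loss of RDR1 in plants that already lack FRY1 function was measured by comparing transcripts of fry1-6 rdr1-1 seedlings with those of fry1-6 seedlings. The comparison used 4 of the 8 libraries of the study, 2 of each genotype, chosen by their titles. It covered the nuclear genes, that is those on chromosomes 1 to 5. Of 37361 genes in the deposited tables, 37065 are nuclear, and 22606 of these had enough counts to be tested.

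All plants were Columbia-0 Arabidopsis, and the labels give seedlings at 12 days, kept at 23 °C under 16 h of daily light, although another label calls them two-week-old and the methods of the study give shorter days and another library kit. Both groups carry fry1-6, a T-DNA insertion in FRY1 (AT5G63980), and the group of interest also carries rdr1-1, a T-DNA insertion in RDR1 (AT1G14790). The other libraries are wild type (WT) and fry1-6 rdr6-11, which carries a mutant allele of RDR6 (AT3G49500). Each genotype is represented by 1 allele combination, and both mutations are present in the whole plant. The genotype entry in the labels of both fry1-6 rdr1-1 libraries names the rdr6 double mutant, while their titles, the series design and the methods give rdr1, which was followed here. Nothing states that the 2 libraries of a genotype came from separate cultures, so the p-values measure the spread between these libraries only.

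RDR1 and RDR6 are RNA-dependent RNA polymerases. They copy single-stranded transcripts into double-stranded RNA, which Dicer-like enzymes cut into small interfering RNAs (siRNAs), and RDR1 is best known in Arabidopsis for its part in antiviral silencing. FRY1, also called SAL1, is a nucleotidase of chloroplasts and mitochondria that degrades 3'-phosphoadenosine 5'-phosphate, a by-product of sulfation that inhibits the 5'-to-3' exoribonucleases XRN2, XRN3 and XRN4. Without FRY1 these nucleases are impaired, and RNAs that they would degrade can become templates for RDR enzymes.

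For KFB50 (AT3G59940) and SOT16 (AT1G74100), genes from which siRNAs arise in fry1 mutants, the study used short oligonucleotides as hybridization probes for siRNAs. Both are shown because they name the stretch of mRNA that the siRNAs come from. Each has 1 match in the TAIR10.1 genome, and each match lies in a coding exon of its gene. The KFB50 probe, at chr3:22143850-22143870 on the minus strand, is antisense to its gene. The SOT16 probe, at chr1:27864683-27864703 on the minus strand, reads in the same direction as its gene.

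KFB50 probe: accatgaattcgtaatcggat

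SOT16 probe: agctttgtagctttgagacgt

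The fry1-6 libraries held 15069329 and 15520665 counts and the fry1-6 rdr1-1 libraries 23295303 and 26285519, which are also the lowest and the highest totals among all 8. A level of 3 counts in a library, taken as its floor, corresponds to between 0.121 and 0.215 CPM (TMM-scaled counts per 1000000 counts of the library), and this floor covers counting error only. The share of counts on chloroplast genes was 0.173% and 0.0509% in fry1-6 but 2.80% and 2.40% in fry1-6 rdr1-1, and 2.47% and 2.29% in fry1-6 rdr6-11. Both WT libraries, at 0.161% and 0.0342%, were on the level of fry1-6. Whether this goes with the genotypes or with how the libraries were made cannot be told apart. Its part in the single differences below was not tested, and calls made without the organelle genes are given below. Summed over 5 leaf markers, the level was 42629 and 33196 CPM in fry1-6 and 50559 and 45171 CPM in fry1-6 rdr1-1. Single leaf markers went both ways, 2 higher and 3 lower in fry1-6 rdr1-1, with a median log2 difference of -0.003. The sum over 6 root markers was 253 and 151 CPM in fry1-6 and 400 and 329 CPM in fry1-6 rdr1-1. Most of that root sum was PYK10, a beta-glucosidase of roots. Summed flower markers were at or below 5.64 CPM and summed seed markers at or below 0.323 CPM in every library. In whole seedlings, fewer cells of a type and less RNA per cell cannot be told apart.

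RDR1 itself, the gene carrying the insertion, was at 17.8 and 12.5 CPM in fry1-6 and at 28.8 and 19.5 CPM in fry1-6 rdr1-1. The libraries of the double mutant were the higher ones, without overlap, and the difference of 0.67 ± 0.45 (log2, ± SE) did not pass the test (adjusted p = 0.51). Here and below, adjusted p is from edgeR's quasi-likelihood test across all genes with Benjamini-Hochberg adjustment. The SE is derived from that test, as the absolute log2 difference over the square root of its F statistic. It rests on the spread within all 8 libraries fitted together. The RDR1 counts are summed over the whole gene and so include any transcript made before or after the insertion, which means that they check the rdr1-1 label in neither direction. In fry1-6 rdr6-11, in which RDR1 is not mutated, RDR1 was at 38.9 and 20.9 CPM.

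FRY1, which carries the same insertion in both groups, and RDR6, which is mutated in neither, did not pass the test either. FRY1 was at 101 and 93.6 CPM in fry1-6 and at 55.0 and 118 CPM in fry1-6 rdr1-1 (log2 difference -0.17 ± 0.46, adjusted p = 0.894). RDR6, which makes the double-stranded precursors of trans-acting siRNAs, was at 21.5 and 17.3 CPM in fry1-6 and at 11.0 and 19.5 CPM in fry1-6 rdr1-1 (-0.34 ± 0.43, adjusted p = 0.737). For both genes the libraries of the genotypes overlapped. Among the 5 annotated genes on each side of RDR1, 8 were tested and none was called, with log2 differences from -0.34 (AT1G14810, an aldehyde dehydrogenase family gene) to 0.56 (AT1G14770, a zinc finger gene). The neighbour AT1G14780 overlaps RDR1, so reads over the overlap can count for both.

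Of 28 genes of the small RNA machinery, 27 were tested and none passed the test in fry1-6 rdr1-1, where 0.0796% of all nuclear genes did. DESeq2 also called none of them, and 3 had an unadjusted p under 0.05, all higher. Their median log2 difference was 0.07, against 0.01 over all nuclear genes, and 9 genes were higher (33.3%) and 7 lower (25.9%) without overlap of the libraries, near the 25.6% and 24.4% over all nuclear genes. DRB4, the double-stranded RNA-binding partner of DCL4, had the smallest adjusted p of the list. Its level was 9.16 and 6.95 CPM in fry1-6 and 13.0 and 13.6 CPM in fry1-6 rdr1-1 (0.72 ± 0.21, adjusted p = 0.2).

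The other members with the largest non-overlapping differences were Argonautes, the proteins that carry small RNAs. AGO7, which carries miR390 in the TAS3 pathway, was at 3.88 and 2.21 CPM in fry1-6 and at 7.96 and 7.19 CPM in fry1-6 rdr1-1 (1.32 ± 0.51, adjusted p = 0.285). AGO6, which acts in RNA-directed DNA methylation, went from 1.74 and 1.75 CPM to 2.92 and 2.67 CPM (0.67 ± 0.27, adjusted p = 0.303). AGO3 stood on the other side, at 8.15 and 8.25 CPM in fry1-6 and 3.19 and 6.71 CPM in fry1-6 rdr1-1 (-0.72 ± 0.46, adjusted p = 0.488). SGS3, the partner of RDR6, was at 33.3 and 28.0 CPM and then at 24.3 and 21.9 CPM (-0.41 ± 0.18, adjusted p = 0.337), and the differences of the Dicer-like genes DCL2 and DCL4 were -0.15 and 0.00.

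**Figure D1:**
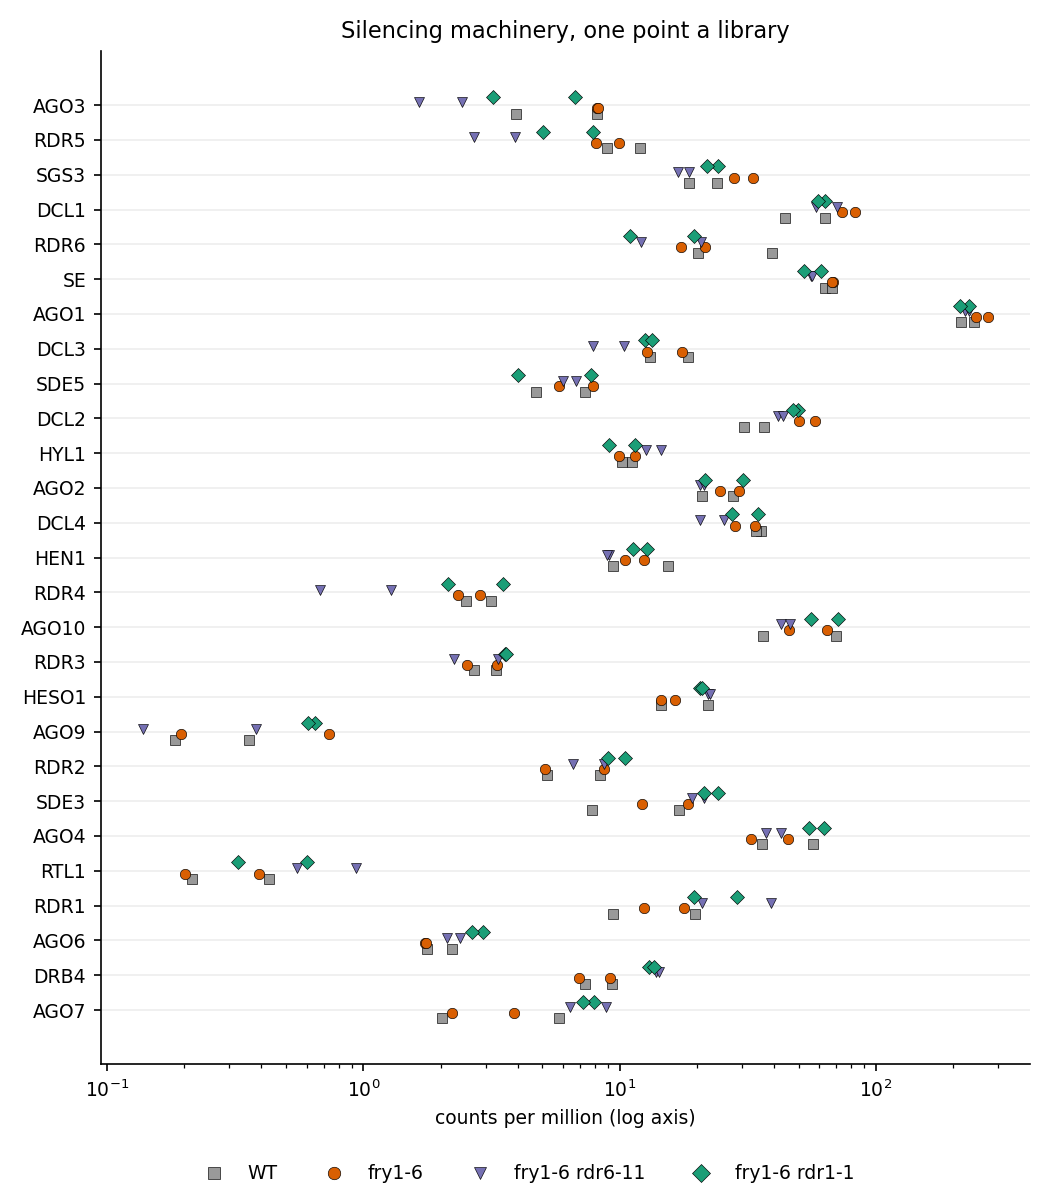
CPM (log axis) in the libraries of each genotype for the 27 tested genes of the small RNA machinery, with 1 point for each library. RDR1 at 28.8 and 19.5 CPM in fry1-6 rdr1-1 lies above fry1-6 at 17.8 and 12.5 CPM, and AGO7 at 7.96 and 7.19 CPM lies above 3.88 and 2.21 CPM, but neither difference passed the test.

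The genes of the exoribonucleases that the FRY1 substrate inhibits did not pass the test either. XRN2 differed by 0.04, XRN3 by -0.14 and XRN4 by 0.06 (log2), with overlapping libraries and adjusted p of 0.919, 0.708 and 0.886. None of the 15 RNA decay genes tested was called by edgeR or DESeq2, none had an unadjusted p under 0.05, and their median was -0.14. The decapping subunit DCP1 (32.1 and 28.9 CPM in fry1-6, 41.5 and 36.0 CPM in fry1-6 rdr1-1) was the only member higher without overlap (6.67%, against 25.6% of all nuclear genes), and 4 members were lower (26.7%, against 24.4%). The 10 pre-rRNA processing genes had a median of 0.18 with none called and none under an unadjusted p of 0.05, and the snoRNP protein NOP56 had the largest difference (0.43 ± 0.22, adjusted p = 0.401).

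Across all 22606 nuclear genes, 18 passed the test between fry1-6 rdr1-1 and fry1-6, which is 0.0796%. Of the 18, 5 were higher in the double mutant (0.0221%) and 13 lower (0.0575%), and an unadjusted p under 0.05 was found for 3483 genes (15.4%), 1749 of them higher (7.74%) and 1734 lower (7.67%). All 18 had non-overlapping libraries, as had 25.6% of all nuclear genes on the higher and 24.4% on the lower side. The adjustment ran over the whole table, organelle genes included. When the same p-values were adjusted over the nuclear genes alone, or when nuclear genes were fitted alone, no gene was called. The 18 then had adjusted p between 0.142 and 0.157 in the nuclear fit. The 18 calls thus depended on the 138 organelle genes in the adjustment. DESeq2 called 563 nuclear genes, among them all 18, and each of the 18 kept its sign in every one of 16 alternatives that gave it a value. Their adjusted p ran from 0.0013 to 0.469 over edgeR's alternatives. Leaving out any 1 of the 6 mutant libraries left at most 3 of the 18 called.

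The lower genes AT5G10340, AT5G16960, EMB1968 and AT3G14670 are given with their WT values, because they were also called higher in fry1-6 than in WT. That comparison, in which 5.06% of all nuclear genes were called higher, shares the fry1-6 libraries, so nothing is read from the overlap. AT5G10340, an F-box family gene, was at 75.7 and 45.8 CPM in fry1-6 and at 4.58 and 3.27 CPM in fry1-6 rdr1-1, while each WT library held 2 counts of it. It fell by 3.95 ± 0.36 (log2, adjusted p = 0.0102), with every fry1-6 value far above both values of the double mutant. AT5G16960, a zinc-binding dehydrogenase family gene, had the smallest adjusted p of the comparison. Its CPM were 46.2 and 44.7 in fry1-6 and 11.0 and 10.4 in fry1-6 rdr1-1, against 1.502 and 1.288 in WT (-2.09 ± 0.17, adjusted p = 0.00699). The remaining level in the double mutant was still several times that of WT.

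EMB1968, which encodes a subunit of the replication factor C clamp loader, was at 84.3 and 93.8 CPM in fry1-6 and at 27.3 and 36.5 CPM in fry1-6 rdr1-1, with 17.2 and 15.1 CPM in WT (-1.48 ± 0.19, adjusted p = 0.0491). AT3G14670, of unknown function, was low throughout, with 39 and 62 counts in fry1-6 and 5 and 3 counts in fry1-6 rdr1-1. The latter of these is at the floor, and the fitted difference of -4.20 ± 0.50 (adjusted p = 0.0395) depends on so few reads. The values in fry1-6 rdr6-11 were 6.76 and 4.37 CPM for AT5G10340, 14.11 and 17.38 CPM for AT5G16960, 46.7 and 54.5 CPM for EMB1968 and 0.850 and 0.965 CPM for AT3G14670.

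NEET (AT5G51720), a protein of plastids and mitochondria that binds a 2Fe-2S cluster and acts in iron homeostasis, was at 144 and 208 CPM in fry1-6 and at 31.9 and 37.8 CPM in fry1-6 rdr1-1 (-2.33 ± 0.27, adjusted p = 0.0359). AT4G32590, a 2Fe-2S ferredoxin-like gene, was at 61.1 and 70.6 CPM and then at 28.7 and 29.8 CPM (-1.17 ± 0.15, adjusted p = 0.0491). SDH8, a plant subunit of mitochondrial succinate dehydrogenase, was at 20.3 and 22.2 CPM and then at 7.22 and 8.16 CPM (-1.46 ± 0.18, adjusted p = 0.042). None of these 3 was called between fry1-6 and WT. AT3G63540, annotated as a thylakoid lumenal protein of the PsbP family, fell from 242 and 285 CPM to 105 and 103 CPM (-1.34 ± 0.16, adjusted p = 0.0405).

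A pair of genes annotated as relatives of DWARF27, the beta-carotene isomerase that starts strigolactone synthesis, were lower by about the same amount. AT1G64680 was at 249 and 274 CPM in fry1-6 and at 105 and 112 CPM in fry1-6 rdr1-1 (-1.27 ± 0.16, adjusted p = 0.0491). AT4G01995 was at 42.2 and 45.8 CPM and then at 19.22 and 20.96 CPM (-1.13 ± 0.14, adjusted p = 0.0418). In both, the libraries of fry1-6 rdr6-11 gave values almost equal to those of fry1-6 rdr1-1, at 112 and 113 CPM for AT1G64680 and 19.42 and 21.01 CPM for AT4G01995.

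The last 3 lower genes were PDX1L4, AT1G14160 and AT3G47836. PDX1L4 (AT2G38210), related to the PDX1 proteins of vitamin B6 synthesis, was at 31.8 and 25.6 CPM in fry1-6 and at 4.40 and 6.22 CPM in fry1-6 rdr1-1 (-2.43 ± 0.27, adjusted p = 0.0307). AT1G14160, of the UPF0497 membrane protein family, was at 30.8 and 30.9 CPM and then at 9.17 and 13.0 CPM (-1.47 ± 0.19, adjusted p = 0.0484). AT3G47836, of unknown function, was at 13.4 and 15.5 CPM and then at 5.28 and 5.74 CPM (-1.39 ± 0.18, adjusted p = 0.0473). For each of them both libraries of the double mutant were below both of fry1-6 by a wide margin.

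Of the 5 genes that rose, NFU5 and ATSMC2 were higher in fry1-6 rdr1-1 than in every library of the 3 other genotypes. NFU5 (AT1G51390), a scaffold of iron-sulfur cluster assembly in mitochondria, was at 46.7 and 42.7 CPM in fry1-6 and at 128 and 135 CPM in fry1-6 rdr1-1 (1.56 ± 0.17, adjusted p = 0.0289). In WT and fry1-6 rdr6-11 it was between 40.9 and 54.5 CPM. ATSMC2 (AT3G47460), an SMC subunit of condensin, which compacts chromosomes in mitosis, was at 19.31 and 17.41 CPM in fry1-6 and at 104.5 and 81.4 CPM in fry1-6 rdr1-1 (2.34 ± 0.26, adjusted p = 0.0305). Its values in fry1-6 rdr6-11 were 13.8 and 8.78 CPM. Against that genotype the difference was also called for both genes, at 1.45 ± 0.17 for NFU5 (adjusted p = 0.029) and 3.04 ± 0.27 for ATSMC2 (adjusted p = 0.0156). Both comparisons use the same fry1-6 rdr1-1 libraries, so the second call is not separate support. The calls between the double mutants also depended on single libraries, as given below.

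The other genes that rose also had higher values in fry1-6 rdr6-11. AGP9, an arabinogalactan protein of the cell wall, was at 40.0 and 36.3 CPM in fry1-6 and at 116 and 123 CPM in fry1-6 rdr1-1 (1.65 ± 0.21, adjusted p = 0.0473), with 86.4 and 66.8 CPM in fry1-6 rdr6-11. The long non-coding RNA AT4G05685 was at 56.4 and 59.7 CPM and then at 139 and 136 CPM (1.25 ± 0.14, adjusted p = 0.0323), and AT3G09795, another one, at 12.5 and 12.7 CPM and then at 28.2 and 25.5 CPM (1.09 ± 0.14, adjusted p = 0.0482). AT3G09795 was at 20.8 and 19.7 CPM in WT and was called lower in fry1-6 than in WT, as were 0.389% of all nuclear genes.

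**Figure D2:**
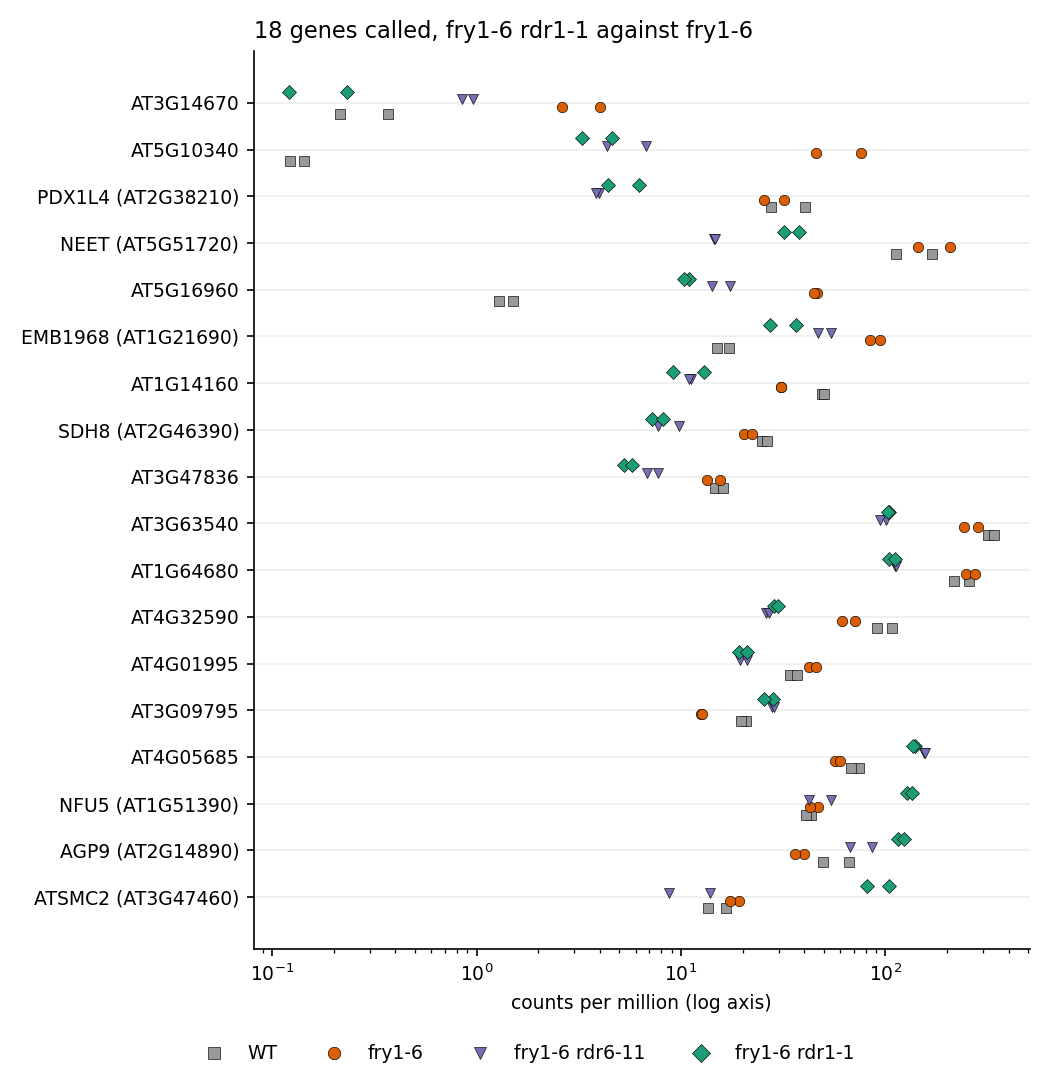
CPM (log axis) of the 18 nuclear genes called between fry1-6 rdr1-1 and fry1-6, with 1 point for each library of the 4 genotypes. The libraries of the compared genotypes do not overlap for any of the 18. NFU5 and ATSMC2 stand out because fry1-6 rdr1-1 lies above the 3 other genotypes.

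Both double mutants have the fry1-6 libraries as their baseline, so agreement of their differences from fry1-6 is not counted here. Tested directly, NFU5 and ATSMC2 were the only genes of the 18 called between the double mutants. For NEET the difference between them was 1.25 (adjusted p = 0.0965), with 14.6 and 14.7 CPM in fry1-6 rdr6-11, and for AT3G14670 it was -2.34 (adjusted p = 0.104).

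Of the 18 genes, 9 overlap another annotated gene, 10 partners in all, and reads over such an overlap can count for both genes since the treatment of strand was not given in the sources used here. The lncRNA AT4G05685 overlaps GRF1 (AT4G09000), a general regulatory factor on the opposite strand, by 842 bases, and GRF1 was at 199 and 227 CPM in fry1-6 and at 347 and 341 CPM in fry1-6 rdr1-1. ATSMC2 overlaps LHCA4, an antenna protein gene of photosystem I, by 53 bases. LHCA4 was at 5671 and 4723 CPM and then at 7137 and 5987 CPM (0.34, adjusted p = 0.602). In fry1-6 rdr6-11 LHCA4 was at 861 and 613 CPM, so it was also higher in fry1-6 rdr1-1 than there. NFU5 overlaps AT1G51400, which encodes a small photosystem II protein, by 72 bases. AT1G51400 was at 428 and 382 CPM in fry1-6, 564 and 603 CPM in fry1-6 rdr1-1 and 233 and 155 CPM in fry1-6 rdr6-11. AT1G14160 overlaps PnsL2, a chloroplast NDH subunit gene, by 262 bases, with 112 and 118 CPM and then 50.8 and 60.6 CPM. None of the 10 partners was called between fry1-6 rdr1-1 and fry1-6. The part of such reads in the values of the called genes was not tested.

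Just outside the threshold were NF-YB3, a CCAAT-binding factor (-1.08), and AT1G21770 (-1.27), both with an adjusted p of 0.0572, and then AT5G07985 at 1.37 with 0.0641. The smallest absolute log2 difference among the called genes was 1.09, and the median standard error over all nuclear genes was 0.27. The absolute log2 difference was above 1 for 1763 genes (7.80%).

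Genes that give rise to siRNAs in fry1-6 are the transcripts on which loss of an RDR enzyme might be seen. The list holds 200 genes with more 21-nt small RNAs in fry1-6 by the study's small RNA libraries, a measurement that is separate from these counts. Of these, 188 are in the tables and 177 were tested. Of the 177, 3 were called, AGP9 higher and AT5G10340 and PDX1L4 lower, where 0.0796% of all nuclear genes were called. DESeq2 called 7 of the 177 higher and 7 lower, against 217 higher and 345 lower of the 22606 nuclear genes tested by edgeR. Without overlap, 57 genes (32.2%) were higher and 31 (17.5%) lower, against 25.6% and 24.4% of all nuclear genes. The median log2 difference was 0.13, against 0.01 over all nuclear genes. That median depended on the fry1-6 libraries, being -0.066 without fry1-6 replicate 2 and 0.321 without replicate 1.

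None of KFB50, SOT16, NIA1 and NIA2, which the study singled out as sources of siRNAs, passed the test. KFB50, a Kelch repeat F-box protein that targets phenylalanine ammonia-lyase for degradation, and whose probe is printed above, was at 310.5 and 402.5 CPM in fry1-6 and at 438 and 342 CPM in fry1-6 rdr1-1 (0.13 ± 0.32, adjusted p = 0.882). SOT16, a sulfotransferase of glucosinolate synthesis, was at 32.1 and 38.2 CPM and then at 39.9 and 40.2 CPM (0.19 ± 0.24, adjusted p = 0.741). The nitrate reductase genes NIA1 and NIA2 were lower on average. NIA1 was at 406 and 212 CPM and then at 224 and 202 CPM (-0.53 ± 0.45, adjusted p = 0.605), and NIA2 at 820 and 763 CPM and then at 547 and 525 CPM (-0.56 ± 0.24, adjusted p = 0.328). Only NIA2 and SOT16 had libraries without overlap.

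Further siRNA-generating genes had large differences that did not pass the test. CCR1 (AT4G39260), a glycine-rich RNA-binding protein under circadian control, was at 532 and 717 CPM in fry1-6 and at 118 and 197 CPM in fry1-6 rdr1-1 (-1.99 ± 0.29, adjusted p = 0.0808). Its relative GRP7 was at 2987 and 3859 CPM and then at 409 and 1312 CPM (-1.99 ± 0.51, adjusted p = 0.182). The fry1-6 rdr1-1 libraries of GRP7 stood far apart from each other. MEE38, which had no count in either WT library, was at 11.8 and 7.02 CPM in fry1-6 and at 1.34 and 0.606 CPM in fry1-6 rdr1-1 (-3.28 ± 0.52, adjusted p = 0.12). The non-coding RNA AT3G22121 was on the higher side, at 535 and 204 CPM and then at 936 and 1157 CPM (1.5 ± 0.68, adjusted p = 0.344).

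**Figure D3:**
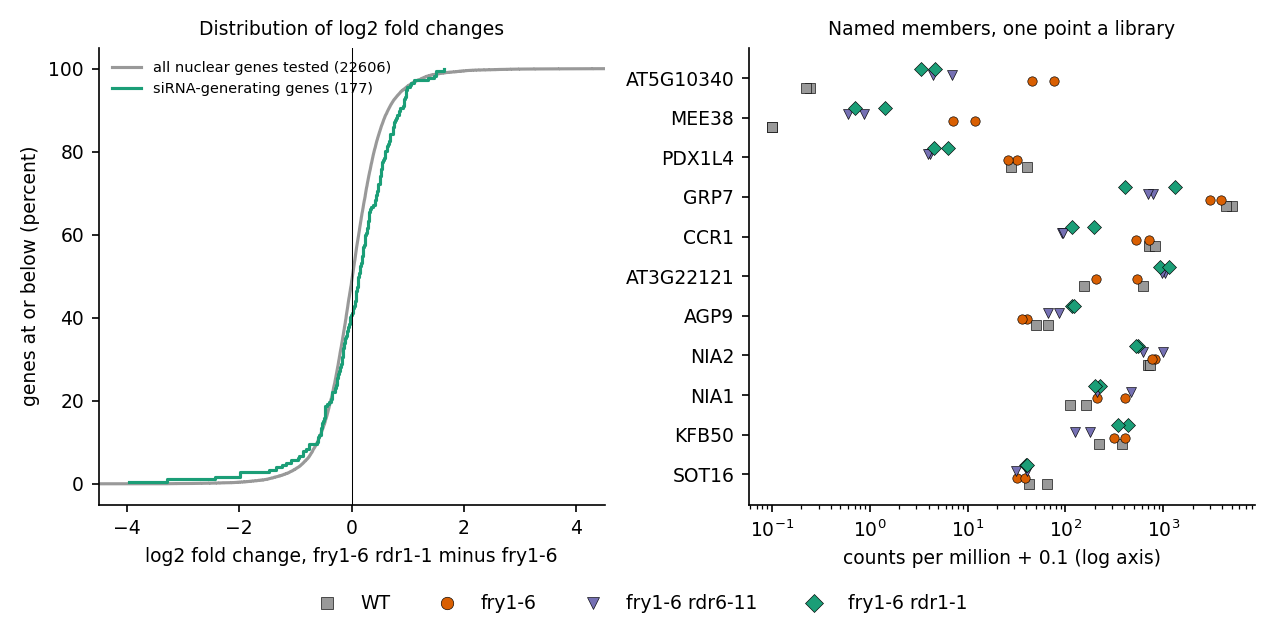
The left panel gives the percent of genes at or below each log2 difference for the 177 siRNA-generating genes and for all nuclear genes, and the right panel the CPM + 0.1 (log axis) of named members, with 1 point for each library of the 4 genotypes. AT5G10340 and PDX1L4 are lower and AGP9 higher in fry1-6 rdr1-1 than in fry1-6, while KFB50 at 438 and 342 CPM overlaps with fry1-6 at 310.5 and 402.5 CPM.

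MicroRNAs direct the cleavage of complementary mRNAs, and 79 of 83 listed targets were tested. None was called by edgeR, DESeq2 called 1 higher and 1 lower, and 6 had an unadjusted p under 0.05 in each direction. Their median was 0.04, and 20 were higher and 20 lower without overlap (25.3% each), close to the shares over all nuclear genes. Families differed in direction, and each family's median is given only as a description.

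The 10 tested targets of miR156, SPL transcription factors that promote the change from the juvenile to the adult phase, had the lowest median among families with more than 3 members, -0.54. The family was not uniformly lower, with 6 negative and 4 positive differences, from -1.07 to 0.69. Without overlap 4 members were lower and 1 was higher, where 24.4% of all nuclear genes were lower and 25.6% higher. Sites are shown for these 4 lower members, which had the largest non-overlapping differences. They stand beside the study's probe for miR156, whose complement the miRNA is. Capitals mark bases that differ from the probe.

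miR156 probe: gtgctctctttcttctgtca

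SPL10 site: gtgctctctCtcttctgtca

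SPL9 site: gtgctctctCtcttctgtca

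SPL15 site: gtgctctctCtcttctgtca

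SPL3 site: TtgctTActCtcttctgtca

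The sites of SPL10 (chr1:9505541-9505560, minus strand), SPL9 (chr2:17589066-17589085, plus strand) and SPL15 (chr3:21444834-21444853, minus strand) have 1 difference from the probe and lie in coding exons of TAIR10.1. That of SPL3 (chr2:14305878-14305897, plus strand) has 4 and lies in an exon outside the coding sequence. SPL10 was at 29.9 and 26.1 CPM in fry1-6 and at 14.9 and 11.9 CPM in fry1-6 rdr1-1, with 12.0 and 6.99 CPM in WT (-1.07 ± 0.27, adjusted p = 0.18). SPL3 was at 23.5 and 28.8 CPM and then at 12.7 and 18.7 CPM (-0.73 ± 0.26, adjusted p = 0.263). SPL9 was at 42.0 and 30.5 CPM and then at 15.7 and 22.1 CPM (-0.94 ± 0.57, adjusted p = 0.467), and SPL15 at 8.15 and 6.50 CPM and then at 4.63 and 4.44 CPM (-0.69 ± 0.26, adjusted p = 0.277). Of these, SPL3, SPL10 and SPL15 were called higher in fry1-6 than in WT, as were 5.06% of all nuclear genes. That comparison shares the fry1-6 libraries by which the 4 genes were picked, so nothing is read from the overlap. None of the 4 was called lower in fry1-6 rdr1-1 than in fry1-6.

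The 5 targets of miR166, class III HD-ZIP factors of leaf polarity and vascular development, all had negative differences (median -0.27). PHB was at 192 and 181 CPM in fry1-6 and at 151 and 129 CPM in fry1-6 rdr1-1 (-0.41 ± 0.16, adjusted p = 0.293), against 41.8 and 41.9 CPM in WT. CCS, the copper chaperone of superoxide dismutase and a miR398 target, was at 60.9 and 58.2 CPM and then at 45.7 and 23.1 CPM (-0.79 ± 0.30, adjusted p = 0.276). AGO1 (miR168) and DCL1 (miR162), which make and carry miRNAs themselves, differed by -0.23 and -0.35, with adjusted p of 0.531 and 0.46.

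Other families lay on the higher side. All 3 targets of miR171, GRAS factors of the shoot meristem, had positive differences (median 0.46), led by HAM1 at 121 and 122 CPM in fry1-6 and 188 and 176 CPM in fry1-6 rdr1-1 (0.59 ± 0.14, adjusted p = 0.175). Of 7 targets of miR396, 5 had positive differences, growth-regulating factors for the most part, with a median of 0.42. GRF3 was at 69.2 and 88.7 CPM and then at 136 and 109 CPM (0.63 ± 0.20, adjusted p = 0.224). All 7 NF-YA targets of miR169 (median 0.42) and all 4 auxin receptor targets of miR393 (median 0.35) had positive differences. No family except miR171 (HAM1, higher) and miR156 (SPL10, lower) held a gene that DESeq2 called.

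Among 10 tested TAS transcripts and trans-acting siRNA targets the median was 0.17 with none called by either tool, and 1 had an unadjusted p under 0.05. TAS3, the precursor cut by AGO7 with miR390, was at 7.15 and 6.76 CPM in fry1-6 and at 10.3 and 10.5 CPM in fry1-6 rdr1-1 (0.58 ± 0.19, adjusted p = 0.232). HTT2, a target of TAS1 siRNAs, was at 33.4 and 33.5 CPM and then at 16.3 and 28.1 CPM (-0.59 ± 0.39, adjusted p = 0.507).

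FRY1 acts on a product of sulfation, and 19 of 20 listed genes of sulfur metabolism were tested. Of these, 17 had positive differences in fry1-6 rdr1-1, with a median of 0.31, 3 with an unadjusted p under 0.05, none called by edgeR and 1 called higher by DESeq2. Without overlap, 6 were higher (31.6%, against 25.6% of all nuclear genes) and 1 lower (5.26%, against 24.4%). SULTR1;2, the main transporter for uptake of sulfate by roots, was at 23.8 and 36.3 CPM in fry1-6 and at 65.8 and 56.9 CPM in fry1-6 rdr1-1 (1.03 ± 0.29, adjusted p = 0.198). SHM7, a serine hydroxymethyltransferase that acts in S-adenosylmethionine synthesis, was at 51.9 and 110 CPM and then at 152 and 191 CPM (1.08 ± 0.36, adjusted p = 0.232). SDI1, a repressor of glucosinolate synthesis that is induced by sulfur deficiency, was high in 1 library only, at 7.08 and 6.50 CPM in fry1-6 and at 8.71 and 68.4 CPM in fry1-6 rdr1-1. The summed root markers, given above, were also higher in fry1-6 rdr1-1, and their part in the SULTR1;2 value was not tested.

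Nuclear genes for plastid transcription and RNA handling were mostly lower. Of 13, all tested, 11 were lower without overlap (84.6%, against 24.4% of all nuclear genes), 5 with an unadjusted p under 0.05. None was called by edgeR, and DESeq2 called 1 lower, while the median was -0.35. RPOTMP, a phage-type RNA polymerase found in mitochondria and plastids, was at 20.05 and 18.39 CPM in fry1-6 and at 10.09 and 11.88 CPM in fry1-6 rdr1-1 (-0.81 ± 0.18, adjusted p = 0.156). The plastid polymerase RPOTP was at 63.2 and 54.6 CPM and then at 28.9 and 42.5 CPM (-0.72 ± 0.22, adjusted p = 0.221), and the sigma factor SIG3 at 123 and 111 CPM and then at 59.0 and 81.0 CPM (-0.74 ± 0.20, adjusted p = 0.194). For these 3 genes the values in fry1-6 rdr6-11 were close to those in fry1-6 rdr1-1, at 9.43 and 11.1 CPM for RPOTMP. The chloroplast share of counts, given above, was higher in both double mutants, and its part in these differences was not tested.

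Genes for the photosynthetic apparatus lay on the other side. Of 24 tested, 15 were higher (62.5%, against 25.6% of all nuclear genes) and 4 lower without overlap, and the median was 0.28. None was called by edgeR or DESeq2 and 1 had an unadjusted p under 0.05. LHCA3, an antenna protein of photosystem I, was at 3550 and 3091 CPM in fry1-6 and at 5166 and 5053 CPM in fry1-6 rdr1-1 (0.62 ± 0.23, adjusted p = 0.276). LHCB3, an antenna protein of photosystem II, was at 2811 and 2042 CPM and then at 4632 and 3459 CPM (0.74 ± 0.41, adjusted p = 0.433). The Rubisco small subunit RBCS1B was at 1184 and 790 CPM and then at 486 and 714 CPM (-0.72 ± 0.35, adjusted p = 0.381). LHCB and RBCS genes have near-identical copies among which reads may be split, so single values of these genes are uncertain.

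Circadian clock genes had a median of -0.39 over 14 genes, 6 lower (42.9%, against 24.4% of all nuclear genes) and 1 higher (7.14%, against 25.6%) without overlap, with 1 unadjusted p under 0.05 and 1 gene called lower by DESeq2. ELF4, of the evening complex, was at 95.4 and 122 CPM in fry1-6 and at 10.6 and 61.0 CPM in fry1-6 rdr1-1 (-1.60 ± 0.70, adjusted p = 0.333). The morning factor LHY went the other way, from 4.34 and 3.25 CPM to 16.7 and 5.41 CPM (1.54 ± 0.67, adjusted p = 0.33). In both genes replicate 1 of fry1-6 rdr1-1 was farther from fry1-6 than replicate 2. All 8 tested heat shock genes had positive differences (median 1.28), but their summed level was 80.7 and 80.0 CPM in fry1-6 and 240 and 84.9 CPM in fry1-6 rdr1-1, so it was high in replicate 1 only. MBF1C, a coactivator of the heat response, was the only one without overlap, at 6.35 and 9.75 CPM and then at 28.4 and 18.5 CPM (1.54 ± 0.43, adjusted p = 0.2). DESeq2 called 1 heat shock gene higher.

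Abscisic acid and osmotic stress genes had a median of 0.24 over 16 genes and salicylate and immunity genes of 0.16 over 19, with none called by either tool. There were 1 abscisic acid gene and 2 immunity genes with an unadjusted p under 0.05. RD29B, a desiccation-responsive gene, was at 0.468 and 0.650 CPM in fry1-6 and at 2.315 and 2.1004 CPM in fry1-6 rdr1-1 (1.97 ± 0.39, adjusted p = 0.138). PR5, a pathogenesis-related gene of the salicylate response, was at 8.89 and 15.3 CPM and then at 6.85 and 2.50 CPM (-1.38 ± 0.48, adjusted p = 0.253).

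**Figure D4:**
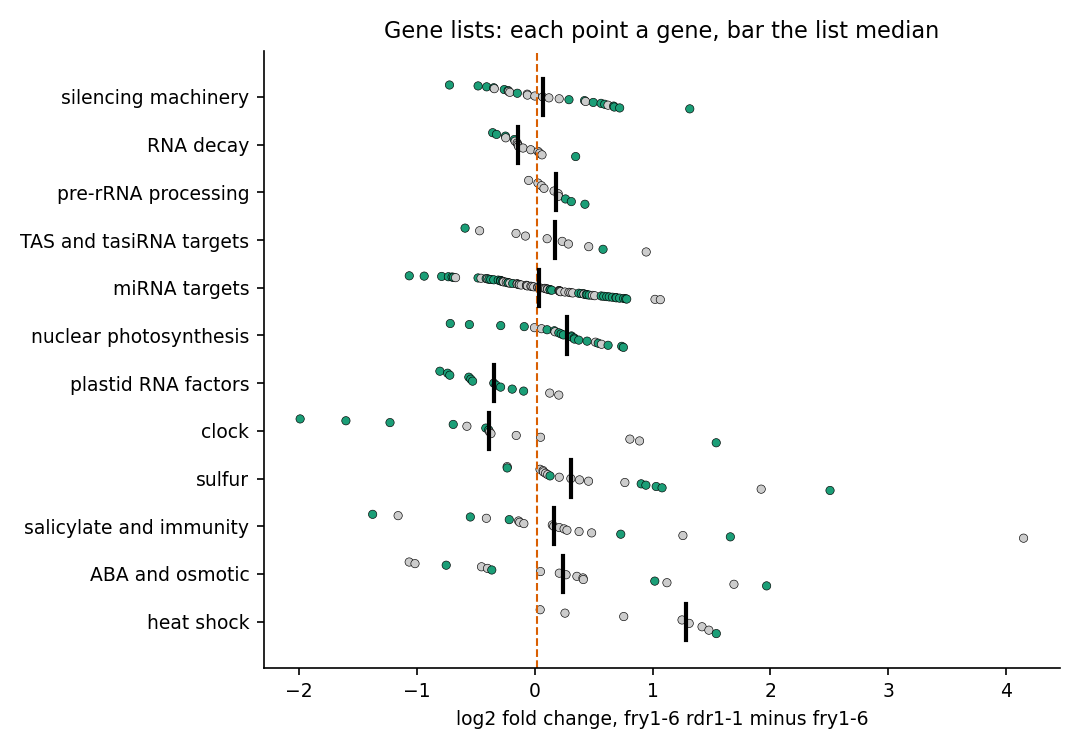
Log2 difference of fry1-6 rdr1-1 minus fry1-6 for each tested gene of the gene lists, 1 point for each gene, with a black bar at the median of the list and a dashed line at the median of all nuclear genes (0.01). Green points are genes whose libraries do not overlap between the genotypes; plastid RNA factors lie mostly below the line (median -0.35) and photosynthesis genes mostly above it (median 0.28).

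The direct comparison of the double mutants asks where loss of RDR1 and loss of RDR6 within fry1-6 differ. The fry1-6 libraries do not enter the difference itself but share in the filter, the scaling and the estimate of spread. In fry1-6 rdr1-1, 228 nuclear genes were higher (1.01%) and 23 lower (0.102%) than in fry1-6 rdr6-11, 251 in all (1.11%). The number depended on single libraries, being 0 without fry1-6 rdr1-1 replicate 1 or without either fry1-6 rdr6-11 library, 28 without fry1-6 rdr1-1 replicate 2, and 31 and 30 without fry1-6 replicate 1 and 2. With scaling by total counts it was 100 higher and 41 lower. The calls named below share this dependence. Of the 228 genes, 192 were called lower in fry1-6 rdr6-11 than in fry1-6, and 2 were called between fry1-6 rdr1-1 and fry1-6. Their median log2 difference from fry1-6 was 0.24 in fry1-6 rdr1-1 and -1.70 in fry1-6 rdr6-11. Of the 23 genes, 15 were called higher in fry1-6 rdr6-11 than in fry1-6, and 0 between fry1-6 rdr1-1 and fry1-6. These comparisons share libraries, so their calls are not independent.

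Of the 24 photosynthesis genes, 10 were called, all higher than in fry1-6 rdr6-11, where 1.01% of all nuclear genes were. LHCB3 was at 176 and 116 CPM in fry1-6 rdr6-11, and the rdr1-1 double mutant, at the values given above, exceeded it by 4.79 ± 0.48 (log2, adjusted p = 0.0229). LHCA3 was at 1454 and 1162 CPM there, a difference of 1.97 ± 0.24 (adjusted p = 0.029). LHCB1.1 was at 6836 and 4686 CPM in fry1-6, 1356 and 894 CPM in fry1-6 rdr6-11, and reached 11332 and 8072 CPM in fry1-6 rdr1-1 (3.11 ± 0.42, adjusted p = 0.0312).

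Of the 14 clock genes, 3 were also called higher than in fry1-6 rdr6-11, where 1.01% of all nuclear genes were. These were PRR7, PRR5 and GI, named here after their values were seen. PRR7, a repressor of the clock loop, was at 27.9 and 17.9 CPM in fry1-6 rdr6-11 and at 236 and 219 CPM in fry1-6 rdr1-1 (3.31 ± 0.26, adjusted p = 0.0156), while fry1-6 was at 326 and 280 CPM. GI, which acts in the clock and in flowering, was at 13.1 and 8.60 CPM and at 122 and 221 CPM (3.98 ± 0.54, adjusted p = 0.0312). CIPK20, a protein kinase that interacts with calcineurin B-like proteins and the gene with the smallest adjusted p, was at 0.637 and 0.276 CPM in fry1-6 rdr6-11 and at 52.1 and 41.0 CPM in fry1-6 rdr1-1 (6.64 ± 0.36, adjusted p = 0.0113). It was at 32.1 and 26.3 CPM in fry1-6, so that fry1-6 rdr6-11 was the low one. Whether harvest or library preparation differed between the double mutants was not tested.

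Of the 19 sulfur genes tested, 2 were called, both higher in fry1-6 rdr1-1, where 1.01% of all nuclear genes were. In fry1-6 rdr6-11, SULTR1;2 was at 20.9 and 14.4 CPM and SHM7 at 22.4 and 16.4 CPM. The differences were 1.80 ± 0.29 (adjusted p = 0.0474) and 3.14 ± 0.38 (adjusted p = 0.029). Of the 79 miRNA targets, NF-YA1, a CCAAT-binding factor, was the only one called. It was at 13.3 and 14.1 CPM in fry1-6 rdr6-11 and at 26.6 and 26.3 CPM in fry1-6 rdr1-1 (0.95 ± 0.15, adjusted p = 0.0467), with 25.79 and 22.03 CPM in fry1-6. Of the 177 siRNA-generating genes 10 were called, 9 higher in fry1-6 rdr1-1, LHCB3, LHCB1.1 and CIPK20 among them, and AT1G10160 lower, where 1.01% of all nuclear genes were higher and 0.102% lower. No gene of the small RNA machinery was called between the double mutants.

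**Figure D5:**
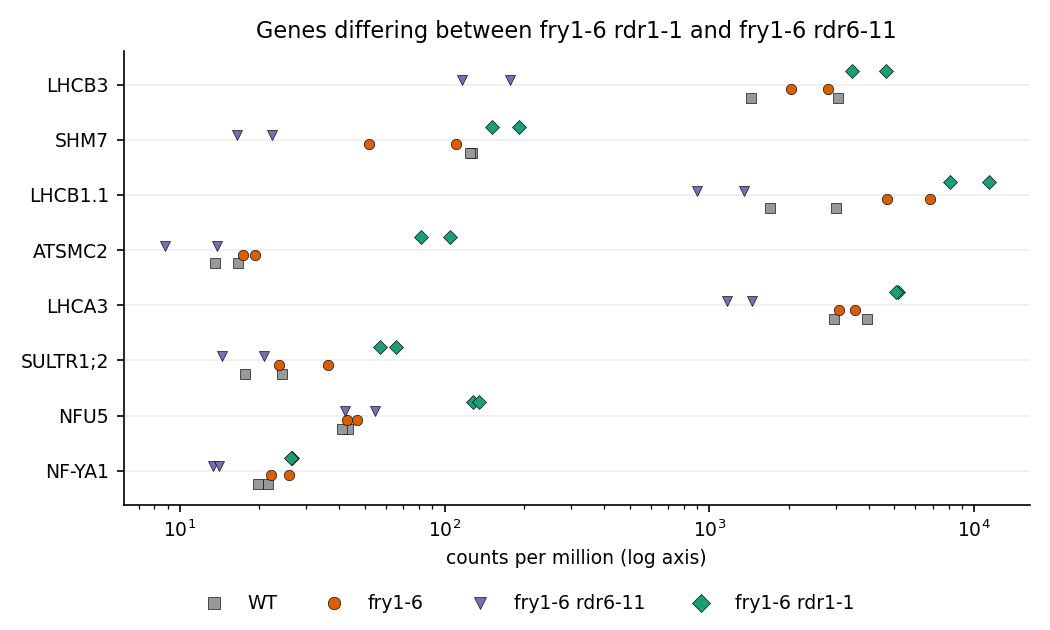
CPM (log axis) of the named genes called between the double mutants, with 1 point for each library of the 4 genotypes. For LHCB3 the fry1-6 rdr6-11 libraries, at 176 and 116 CPM, lie far below all others, while for NFU5 and ATSMC2 it is fry1-6 rdr1-1 that lies above the rest.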

How the data were processed

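RNA-seq was made from total RNA of seedlings of 4 genotypes, 2 libraries each. The files deposited by the authors hold unnormalized read counts for each gene. Per the labels and the methods, base calling was by CASAVA, alignment to Araport11 by STAR 2.6 and counting by featureCounts 1.6.4 within pRNASeqTools. A read with several possible positions was assigned to 1 of them, which makes genes with near-identical copies uncertain, and the strand setting is not given in the sources used here. UGT75B1 and its antisense RNA AT1G05562 hold identical counts in every library, so reads over overlapping genes were counted for each.

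From these counts, genes were kept by filterByExpr (minimum count of 10, minimum total of 15), libraries were scaled by TMM and all 8 were fitted together with edgeR 4.0.16 (limma 3.58.1, R 4.3.3), which gave 4 residual degrees of freedom and a biological coefficient of variation of 27.0%. P-values of the two-sided quasi-likelihood test were adjusted by Benjamini and Hochberg over the 22744 genes tested, of which 138 are organelle genes, at a threshold of 0.05, and only nuclear genes are reported. An exact permutation test of 2 against 2 libraries cannot go below p = 0.333 and was not used. DESeq2 1.42.0, which the authors used, was an alternative. The other alternatives were nuclear genes only, other scalings and filters, only the libraries compared, a replicate block, and leaving out libraries. Tables were handled with Python 3.11.15. In simulated data with 200 changed genes, the fit recovered 1% of 2-fold and 48% of 4-fold changes, with 3 false calls. A gene not called here may therefore still differ.

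The siRNA-generating genes have a 21-nt small RNA increase in fry1-6 above 1.5-fold with a p under 0.01 in the study's small RNA table. Other lists were written from general knowledge. The rule for named genes took RDR1, FRY1, RDR6, the called genes, the neighbours of RDR1 and, in each list, the called members and the 4 with the largest differences among those whose log2 CPM averaged 1 or more and whose libraries did not overlap. Genes outside it (the XRN, DCL2, DCL4, SULTR, KFB50, NIA1 and RD29B values, and the clock genes and CIPK20 between the double mutants) were added after values were seen. The comparison, lists and members were chosen with earlier results of these data known. Probe and target sequences come from the study's oligonucleotide table and TAIR10.1, and the study's small RNA libraries were not analysed here.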

Additional observations from a re-analysis of the deposited data

Results flagged for a closer look

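Differences between the double mutants, tested directly in the same edgeR fit with Benjamini-Hochberg adjustment, were found for 251 nuclear genes. Among the named genes they were ATSMC2, with a log2 difference of 3.04 for fry1-6 rdr1-1 minus fry1-6 rdr6-11, LHCB3 (4.79), LHCA3 (1.97), NFU5 (1.45), SHM7 (3.14), LHCB1.1 (3.11), NF-YA1 (0.95) and SULTR1;2 (1.80). In all 8 genes the libraries of fry1-6 rdr1-1 were above those of fry1-6 rdr6-11.

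Chloroplast genes, which entered the fit and the adjustment but whose own differences are not reported here, took 2.80% and 2.40% of the counts in fry1-6 rdr1-1, above both fry1-6 libraries at 0.173% and 0.0509% and both WT libraries at 0.161% and 0.0342%.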

How the results depend on the processing

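The 18 calls between fry1-6 rdr1-1 and fry1-6 became 0 with nuclear genes only or with adjustment over nuclear genes alone (3494 and 3483 unadjusted p under 0.05, respectively), 1 with only the 4 libraries compared, 6 with at least 10 counts in every library, 563 with DESeq2 and 63 at an adjusted p under 0.1. Of the 18 named genes, 0, 0, 1 and 6 stayed called in the first 4 of these. The siRNA-generating genes called went from 3 to 0, 0, 0 and 1 there, to 14 with DESeq2 and to 5 at the looser threshold. The 251 genes between the double mutants became 141 by total counts (100 higher, 41 lower, with a median over all nuclear genes of -0.36), 1116 with only the 4 libraries compared, 1239 with DESeq2 and 557 at the looser threshold.

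With libraries left out in turn, the 18 calls ranged from 0 to 3, the siRNA-generating genes called from 0 to 1, the named genes called from 0 to 3 and the 251 from 0 to 31. The call counts against fry1-6 were 2 and 1 without fry1-6 replicate 1 and 2, 0 without either fry1-6 rdr1-1 replicate, and 3 without either fry1-6 rdr6-11 replicate. A genotype left with 1 library is assumed there to vary like the others. The 251 became 0 and 28 without fry1-6 rdr1-1 replicate 1 and 2, 0 without either fry1-6 rdr6-11 replicate, and 31 and 30 without fry1-6 replicate 1 and 2. The leave-outs of fry1-6 rdr6-11, those of fry1-6 between the double mutants, the adjustment over nuclear genes and the crossed block were chosen after the data were seen.

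Deviations of libraries with the same replicate number correlated at -0.16 between fry1-6 and fry1-6 rdr1-1 and at 0.66 between fry1-6 and WT. No label ties a number to a shared batch or day, so whether libraries of the same number were handled together is not known. With the replicate block, 5 genes were called against fry1-6, 4 of them among the named ones, 1 siRNA-generating gene, and 175 between the double mutants. With the crossed pairing as a block, 33 genes were called against fry1-6 and 516 between the double mutants.

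Over single named genes and alternatives, 1583 values kept their side of the threshold, 180 lost the call and 8 gained one. The 1583 include differences that did not pass the test, and for these the sign may change between alternatives. The median of the siRNA-generating genes moved between -0.066 and 0.321. The number of genes called at 2 libraries per genotype depended on the tool, as the counts by DESeq2 above show.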

Other observations

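Gene classes outside the protein-coding genes are given for the comparison of fry1-6 rdr1-1 with fry1-6, in which 24.4% of all nuclear genes were lower and 25.6% higher without overlap of the libraries. Of 198 tested pseudogenes, 79 (39.9%) were lower and 29 (14.6%) higher without overlap, with a median log2 difference of -0.33 against 0.01 over all nuclear genes. DESeq2 called 7 of the 198 lower and 1 higher, against 345 lower and 217 higher of the 22606 nuclear genes tested by edgeR. By edgeR none was called, with 28 lower and 10 higher under an unadjusted p of 0.05. Over all nuclear genes 7.67% were lower and 7.74% higher by that measure. Of 118 RNAs annotated only as non-coding, 45 (38.1%) were lower and 14 (11.9%) higher, with a median of -0.30. Both classes hold weakly expressed genes and copies that share reads, and neither was tested as a set. Among 76 antisense RNAs the median was 0.14, with 26 higher (34.2%) and 21 lower (27.6%), and among 1196 long non-coding RNAs it was 0.00, with 2 called higher, AT4G05685 and AT3G09795.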
